A study of Mus musculus with 8 samples.

Results

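Glutathione transferases, UDP-glucuronosyltransferases and sulfotransferases are the enzyme families that attach glutathione, glucuronic acid or sulfate to drugs, hormones, bilirubin and other small molecules in the liver. Members were all genes of the deposited tables whose symbol begins with Gsta, Gstk, Gstm, Gsto, Gstp, Gstt, Gstz, Ugt1a, Ugt2a, Ugt2b, Ugt3a or one of the Sult classes followed by a number, with 3 pseudogene symbols ending in -ps left out. This gave 64 genes of 56077 in the count table: 22 glutathione transferases, 21 glucuronosyltransferases and 21 sulfotransferases. A total of 44 members, 20, 17 and 7 in the same order of families, were expressed above the filter on low counts and were tested among 14261 genes.

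The study compared livers of C57BL/6 mice aged 6 months, 4 wild-type and 4 of the genotype labelled eIF2α flox/+ (Eif2a flox/+), called heterozygous here. Eif2s1 encodes eIF2α, a part of the complex that brings the initiator tRNA to the ribosome, and its phosphorylation by stress kinases slows translation. The labels name no recombinase that would act on the flox allele, and they describe the animals of both groups as lean and wild-type. All mice were kept on a cycle of 12 h light and 12 h dark, had free access to food and were killed in the fed state early in the morning, and total liver RNA depleted of ribosomal RNA was sequenced. Libraries are called by the column names of the count table, W32, W33, W76 and W90 for wild-type and H11, H12, H15 and H75 for heterozygous livers. No label says whether the mice came from separate litters, so p-values measure only the spread between these samples.

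Conjugation makes a molecule more water-soluble, so that it can leave the hepatocyte through export pumps into bile or blood. Glutathione transferases use the tripeptide glutathione, glucuronosyltransferases use UDP-glucuronate and sulfotransferases use the activated sulfate PAPS. The Ugt1a genes are a single locus in which each enzyme has its own promoter and first exon, spliced to exons that all of them share. Many other members lie in clusters of duplicated genes, and exons of Ugt2a1 and Ugt2a2 also overlap on the same strand.

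Promoter windows are shown for 4 Ugt1a genes and for Ugt2b37 and Ugt2b38, because the members of lowest p among the glucuronosyltransferases are in these clusters. Each window holds 250 bases before and 50 bases after the gene start in RefSeq (GRCm38.p6), 300 bases in all, written on the strand of the gene. Capitals mark the motif found by a search of both strands: GTTAATNAT, 1 arm of the palindrome of the hepatocyte factor HNF1, in Ugt1a9, Ugt1a10 and Ugt1a1, and GCGTG, the core of the response element of the aryl hydrocarbon receptor, in Ugt1a5. The windows of Ugt2b37 and Ugt2b38 held none of the 5 motifs searched. The windows are Ugt1a9 at chr1:88070529-88070828, Ugt1a10 at chr1:88055161-88055460, Ugt1a1 at chr1:88211709-88212008 and Ugt1a5 at chr1:88165762-88166061, all on the plus strand, and Ugt2b37 at chr5:87254739-87255038 and Ugt2b38 at chr5:87424154-87424453, both on the minus strand.
Ugt1a9: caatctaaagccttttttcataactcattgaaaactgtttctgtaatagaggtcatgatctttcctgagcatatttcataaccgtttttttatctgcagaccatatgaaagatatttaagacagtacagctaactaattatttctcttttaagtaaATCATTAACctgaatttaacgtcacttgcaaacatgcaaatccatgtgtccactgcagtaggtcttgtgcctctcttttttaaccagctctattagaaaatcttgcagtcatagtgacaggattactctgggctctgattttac
Ugt1a10: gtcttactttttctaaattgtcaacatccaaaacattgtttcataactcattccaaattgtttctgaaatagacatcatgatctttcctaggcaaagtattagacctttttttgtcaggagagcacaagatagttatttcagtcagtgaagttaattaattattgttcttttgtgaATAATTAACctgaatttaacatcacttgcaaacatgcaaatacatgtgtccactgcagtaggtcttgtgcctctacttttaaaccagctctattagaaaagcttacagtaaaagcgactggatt
Ugt1a1: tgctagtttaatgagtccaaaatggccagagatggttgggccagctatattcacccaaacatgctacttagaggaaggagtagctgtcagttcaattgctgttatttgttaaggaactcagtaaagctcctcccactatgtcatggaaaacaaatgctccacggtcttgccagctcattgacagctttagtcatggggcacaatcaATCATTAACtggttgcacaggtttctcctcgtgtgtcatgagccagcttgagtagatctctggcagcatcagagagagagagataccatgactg
Ugt1a5: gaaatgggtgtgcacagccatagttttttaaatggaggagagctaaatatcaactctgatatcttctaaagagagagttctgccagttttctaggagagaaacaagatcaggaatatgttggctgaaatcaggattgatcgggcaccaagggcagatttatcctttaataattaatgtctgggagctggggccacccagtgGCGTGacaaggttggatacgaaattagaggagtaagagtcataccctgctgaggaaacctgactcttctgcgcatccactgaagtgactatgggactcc
Ugt2b37: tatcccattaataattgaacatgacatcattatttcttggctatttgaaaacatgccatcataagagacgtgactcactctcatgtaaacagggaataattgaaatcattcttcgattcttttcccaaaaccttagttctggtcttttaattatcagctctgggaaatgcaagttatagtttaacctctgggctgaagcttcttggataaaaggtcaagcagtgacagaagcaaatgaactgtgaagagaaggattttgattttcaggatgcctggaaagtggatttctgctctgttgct
Ugt2b38: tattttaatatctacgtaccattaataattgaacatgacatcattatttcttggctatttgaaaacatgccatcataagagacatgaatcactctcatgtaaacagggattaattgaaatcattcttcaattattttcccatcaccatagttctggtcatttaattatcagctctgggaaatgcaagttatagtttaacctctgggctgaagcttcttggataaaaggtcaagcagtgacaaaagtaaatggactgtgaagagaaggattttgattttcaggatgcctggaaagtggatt

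The HNF1 letters began 94 bases before the start of Ugt1a9, 74 before that of Ugt1a10 and 44 before that of Ugt1a1. They were not found exactly in the window of Ugt1a5, which holds tttaataat, different from them only in the first letter. A promoter window was found for 56 of the 64 members. GTTAATNAT was in a window of 8 of these 56 genes (14.3%) and in 0.801% of 32851 windows of all genes. Among the 8 were Sult1d1 and 4 Sult2a genes (Sult2a3, Sult2a4, Sult2a5 and Sult2a6) that had no counts in any library. For members the share is of genes with a match in any of their windows, and for all genes it is of single windows, so the units differ. The palindrome of C/EBP factors, TTGCNNAA, was in a window of 13 members (23.2%) against 10.8% of all windows. The antioxidant response element of NRF2, TGACNNNGC, was found for 3 members (5.36%, 12.4% of all windows), GCGTG for 11 (19.6%, 32.4% of all windows) and the STAT palindrome TTCNNNGAA for 4 (7.14%, 8.3% of all windows). Duplicated members share much of their windows, so these counts are not of independent sequences. The windows of Ugt2b37 and Ugt2b38 were 86.9% identical and those of Ugt1a9 and Ugt1a10 70.9%, while those of Ugt1a9 and Ugt1a5 were 47.2% identical.

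Eif2s1 had 28.4, 28.8, 32.8 and 30.1 CPM (counts scaled to a common library size) in the wild-type libraries, in the order given above, and 20.5, 22.3, 20.8 and 25.1 CPM in the heterozygous libraries. All 4 heterozygous values lay below all wild-type values (exact two-sided permutation p = 0.0286, the smallest that 70 assignments allow), but over all genes the adjusted p was 0.315 with edgeR's quasi-likelihood test and 0.0159 with DESeq2. Libraries held 22178028 to 28564400 counts, and the members took 0.969 to 1.07% of them. The 7 hepatocyte markers summed to 79999.7 CPM or more in every library, while 5 markers each of lymphocytes and kidney tubule summed to at most 2.01 and 0.150 CPM. Other lists were not as low. Pancreatic acinus markers summed to 5.55 to 11.2 CPM in wild-type and 8.24 to 17.6 CPM in heterozygous libraries. The 1 tested gene of that list was higher at an unadjusted p under 0.05 in edgeR (4.9% of all genes). Intestinal markers, of which only Fabp2 was tested, summed to 50.3 to 86.3 and 35.1 to 48.6 CPM, and adipocyte markers to 5.25 to 6.09 and 5.25 to 6.03 CPM. Outside these families H15 differed from the rest of its group. The median log2 difference from the wild-type mean over 20 acute phase genes was 0.75, 1.88, 0.086 and 1.43 in H11, H12, H15 and H75, and over 12 lipogenic genes it was -1.40, -1.49, 0.043 and -1.65. The main values that differ with H15 are therefore also given without it. H15 was picked from these same data, so a test passed only without it is a description and no independent support. Without H15 edgeR called 252 genes over the whole series, against 0 to 2 when any other library was left out. For Eif2s1, H15 lay within the range of the other heterozygous libraries.

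Per kilobase of gene length (RPKM), 3 glutathione transferases led the families, as the plot of levels per length shows. Gsta3, an alpha-class enzyme, averaged 1975 RPKM over the 8 libraries, Gstp1, of the pi class, 1587 RPKM and Gstm1, of the mu class, 1388 RPKM. Gstz1, which also acts in tyrosine breakdown as maleylacetoacetate isomerase, followed with 345 RPKM, and the theta-class Gstt1 with 216 RPKM. The leading glucuronosyltransferases were Ugt2b5 (367 RPKM), Ugt2b36 (238 RPKM), Ugt2b1 (191 RPKM), Ugt1a1, the bilirubin-conjugating enzyme (180 RPKM), and Ugt3a2 (133 RPKM). Among sulfotransferases Sult2a8 (223 RPKM) and the phenol sulfotransferase Sult1a1 (175 RPKM) stood above Sult1d1 (35.7 RPKM), Sult1b1 (9.33 RPKM) and Sult5a1 (1.89 RPKM). A total of 11 members were at 0 in all 8 libraries: Gstt4, Ugt1a8, Ugt2a1, Ugt2a2, Sult1c1, Sult2a3, Sult2a4, Sult2a5, Sult2a6, Sult3a2 and Sult6b2. A count of 0 allows up to 3 counts, or 0.102 to 0.150 CPM depending on the library. The other 9 untested members had counts too low to test, among them the estrogen sulfotransferase Sult1e1 (1 to 35 counts per library) and Sult3a1, which had 24 counts in W32 and fewer in the rest.

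**Figure D1:**
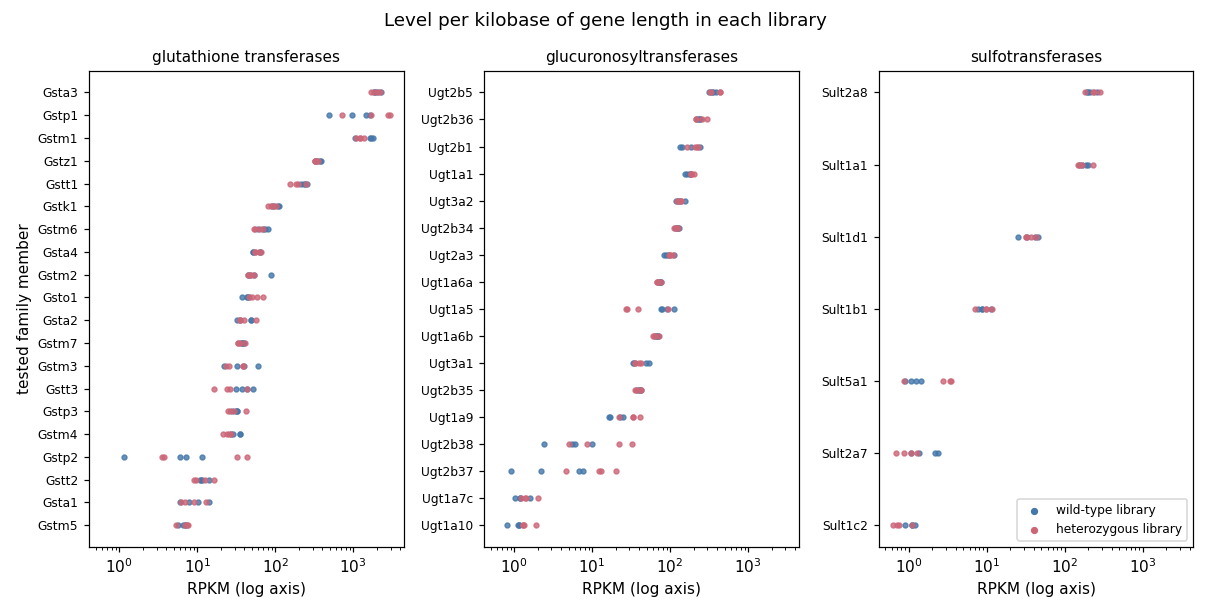
Level per kilobase of gene length (RPKM, log axis) of each tested member in each library, wild-type in blue and heterozygous in red, by family. Gsta3, Gstp1 and Gstm1 average 1388 to 1975 RPKM, and the points of Gstp1, Gstp2, Ugt1a5, Ugt2b37, Ugt2b38 and Sult5a1 spread more widely than those of their neighbours.

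No member passed an adjusted p under 0.05 between the genotypes. The count was 0 of 44 with edgeR's quasi-likelihood test, against 0% of all 14261 genes, 0 with limma-voom (0% of all) and 0 with DESeq2, which called 1.05% of all genes (0.631% higher and 0.421% lower in heterozygous livers). In the authors' deposited table no member was marked significant and the lowest adjusted p among them was 0.0754. At an unadjusted p under 0.05 in edgeR there were 8 members (18.2% of 44, against 9.34% of all genes). Of these, Ugt1a9, Sult5a1, Gsto1, Ugt2b38 and Ugt2b37 were higher in heterozygous livers and Gstm4, Sult2a7 and Ugt1a5 lower. In 4 members (9.09%, against 4.38% of all genes) the 4 heterozygous values lay entirely above or below the wild-type values: Gsto1, Ugt1a10 and Ugt1a1 above (2.06% of all genes), Gstm4 below (2.32% of all genes).

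These counts moved with single libraries. Members at an unadjusted p under 0.05 in edgeR numbered 4 without W32 (6.15% of all genes at that setting), 5 without H12 (5.94%) and 5 without H75 (6.77%). Without H15 they numbered 16, and 16% of all genes were at that level. The first number of each pair counts members, and the percentage is the share of all genes tested. Members without overlap, which is easier to reach with 3 values in a group, numbered 8 without W76 (6.65% of all genes) and 14 without H15 (13.4% of all genes). Without H15 edgeR called 3 members, Ugt1a9 and Sult5a1 higher and Ugt1a5 lower, where 1.74% of 14505 genes were called. In 24 of 44 members the log2 fold change was within 0.2 of 0 (54.5%, against 62.1% of all genes), and the median absolute log2 fold change was 0.14, against 0.15 over all genes. In bulk tissue, fewer cells of a type and less RNA per cell cannot be told apart for any of these values.

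**Figure D2:**
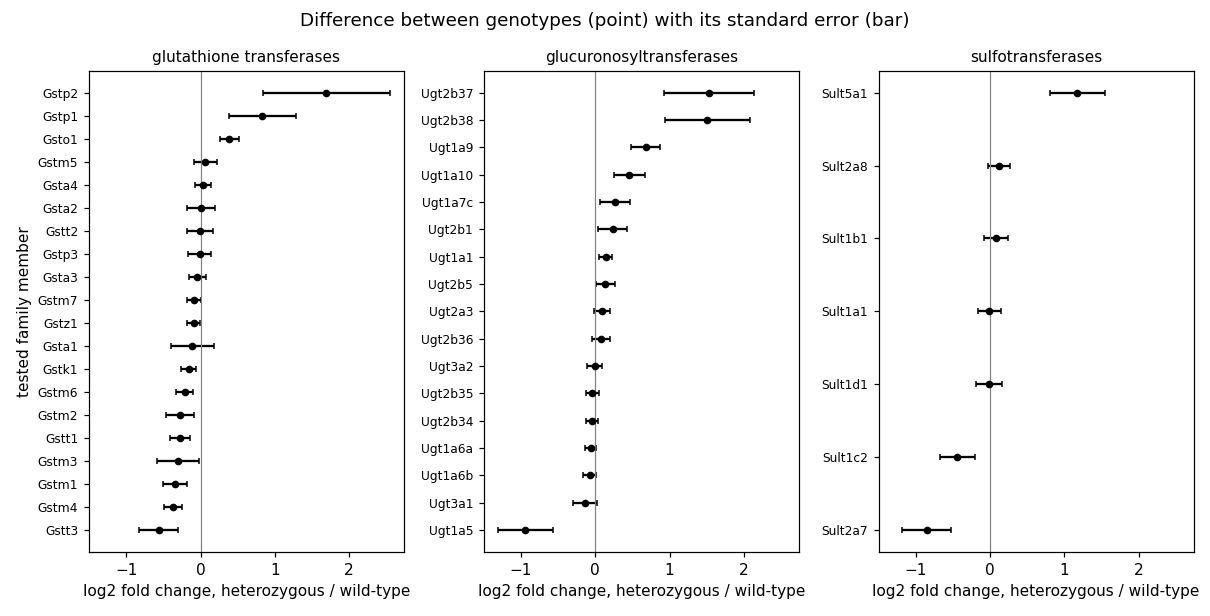
Log2 fold change of heterozygous over wild-type livers for each tested member, with its standard error as a bar, by family. Gstp2, Ugt2b37 and Ugt2b38 have the highest values (1.69, 1.53 and 1.51) with wide bars, Ugt1a5 the lowest (-0.94), and most members lie near 0.

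Among the glutathione transferases, most mu-class genes, Gstt1 and Gstt3 had lower means in heterozygous livers, while Gsto1 and Gstp1 had higher ones. Of 20 tested members 14 had a negative log2 fold change (70%, against 48.9% of all genes), and the median was -0.089 (0.0051 over all genes). At an unadjusted p under 0.05 in edgeR there was 1 member higher and 1 lower (4.9 and 4.44% of all genes). The summed level of all glutathione transferases was 5532 ± 518 CPM in wild-type livers and 5809 ± 729 CPM in heterozygous livers (SD, n = 4), a difference smaller than either SD, whose sign turned when libraries were scaled by their totals alone. The alpha class summed to 1892 ± 151 and 1841 ± 199 CPM (SD, n = 4), and its 4 members had log2 fold changes between -0.11 and 0.032.

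Gsto1, the omega-class enzyme that reduces dehydroascorbate and methylated arsenic, had 51.7, 51.4, 44.2 and 53.8 CPM in wild-type livers and 58.8, 68.5, 54.3 and 81.6 CPM in heterozygous livers. The groups did not overlap, although H15 lay only just above W90. The log2 fold change was 0.39 (SE 0.13, edgeR quasi-likelihood adjusted p = 0.442), and without H15 it was 0.47 (edgeR adjusted p = 0.105). Gsto1 lies at chr19:47854970-47864790 (GRCm38) and shares no stretch of 100 bases with another transcript.

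Gstm4, a mu-class enzyme, had 61.1, 60.2, 46.8 and 48.5 CPM in wild-type livers and 46.7, 36.3, 41.0 and 43.5 CPM in heterozygous livers. The groups did not overlap, but the lowest wild-type value (46.750 CPM, W76) and the highest heterozygous value (46.745 CPM, H11) were all but equal. The log2 fold change was -0.37 (SE 0.12, edgeR adjusted p = 0.430). In all, 6 of 7 tested mu-class genes had negative log2 fold changes, with a median of -0.27. Gstm1, the most abundant of them, had 1496, 1374, 882 and 1385 CPM in wild-type livers and 1012, 898, 1138 and 1008 CPM in heterozygous livers. W76 was the lowest of the 8, so the groups overlapped (log2 fold change -0.34, SE 0.16, edgeR adjusted p = 0.557). The mu-class sum was 1593 ± 319 CPM in wild-type livers and 1276 ± 122 CPM in heterozygous livers (SD, n = 4), a ratio of 0.801.

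The theta class, which acts on small halogenated molecules, had 3 tested genes, of which Gstt1 and Gstt3 had lower means in heterozygous livers. Gstt2 was near 0 (log2 fold change -0.0084, edgeR adjusted p = 0.993, and 0.10 without H15). Gstt3 had 95.9, 59.6, 81.4 and 69.7 CPM in wild-type livers and 49.998, 30.7, 80.8 and 45.8 CPM in heterozygous livers. H15 alone of the heterozygous libraries lay within the wild-type range. The log2 fold change of Gstt3 was -0.57 (SE 0.26, edgeR adjusted p = 0.547), and without H15 it was -0.86 (edgeR adjusted p = 0.0731). Gstt1 had 267, 224, 245 and 248 CPM against 191, 162, 254 and 205 CPM, with H15 again inside the wild-type range (log2 fold change -0.28, SE 0.13, edgeR adjusted p = 0.561). Without H15 the log2 fold change of Gstt1 was -0.40 (edgeR adjusted p = 0.109). Exons of Gstt3 overlap the annotated transcript Gm20441 on the same strand, so its counts depend on how reads were assigned.

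Gstp1, the pi-class enzyme that is high in male mouse liver, had 398, 1357, 799 and 1195 CPM in wild-type livers and 1399, 2399, 587 and 2293 CPM in heterozygous livers. W32 and H15 were the lowest of the 8 libraries, and H12 and H75 the highest. The mean was 937 ± 429 CPM in wild-type livers and 1669 ± 850 CPM in heterozygous livers (SD, n = 4), and the log2 fold change of 0.83 (SE 0.46) had an edgeR adjusted p of 0.614. Without H15 the log2 fold change of Gstp1 was 1.12 (edgeR adjusted p = 0.179). Gstp2, its neighbour on chromosome 19, had 0.920, 5.75, 9.13 and 4.84 CPM against 2.97, 26.1, 2.85 and 34.8 CPM (log2 fold change 1.69, SE 0.85, edgeR adjusted p = 0.579, and 2.04 without H15, edgeR adjusted p = 0.232). H12 and H75 stood above all other libraries for both genes. Of the windows of 100 bases in Gstp2 transcripts 46.9% also occur in another gene, so its low count depends on how reads were split from Gstp1. Gstp1 made up 95.1 to 98.6% of the pi-class counts in every library.

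Male-biased liver genes also varied among these libraries. The median log2 difference of 11 such genes from the wild-type mean was -0.86, 0.37, 0.42 and 0.19 in W32, W33, W76 and W90 and 0.49, 0.89, -0.17 and 0.75 in H11, H12, H15 and H75. W32 and H15 were the lowest of the 8 for this list, as for Gstp1. The list had 2 members at an unadjusted p under 0.05 in edgeR, both higher (Cyp7b1 and Serpina1e), where 4.9% of all genes were higher at that level. Cyp7b1 passed edgeR's test without H15 (adjusted p = 0.0287). The part of the list in the Gstp1 values was not tested. Of the female-biased genes 5 of 12 were tested and 0 were at an unadjusted p under 0.05 in edgeR. Their median log2 difference was 0.87, -0.14, -0.47 and -0.062 in the wild-type libraries and -0.30, -1.29, 0.30 and -1.31 in the heterozygous libraries, highest in W32 and lowest in H12 and H75. Cyp2b9, too low to test over all libraries, was at 30.4 CPM in W32 and at most 1.16 CPM in the others. The sex of the mice is not in the labels used here. In all libraries 4 Y-linked genes were expressed and Xist, the transcript of the inactive X chromosome, was at most 0.424 CPM, the pattern of male tissue.

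Among the glucuronosyltransferases the Ugt1a locus held a pair of members at an unadjusted p under 0.05 in edgeR that differed in opposite directions. Ugt1a9 was higher and Ugt1a5 lower in H11, H12 and H75, while the summed level of the locus overlapped between groups, at 954 ± 70.9 CPM in wild-type livers and 912 ± 40.1 CPM in heterozygous livers (SD, n = 4). Of 17 tested glucuronosyltransferases 10 had a positive log2 fold change, and the median was 0.094 (0.0051 over all genes). At an unadjusted p under 0.05 in edgeR there were 3 higher and 1 lower (4.9 and 4.44% of all genes). The family sum was 3637 ± 206 CPM in wild-type livers and 3783 ± 273 CPM in heterozygous livers (SD, n = 4), a difference below either SD that changed sign when libraries were scaled by their totals alone.

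**Figure D3:**
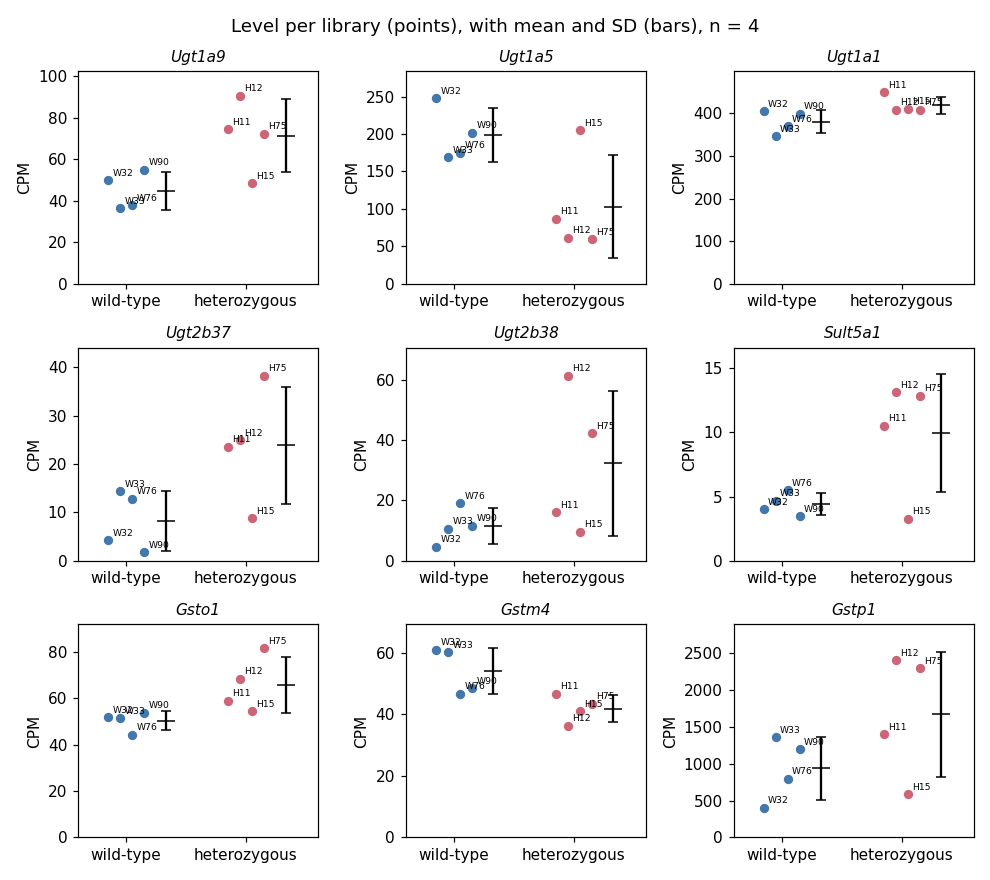
CPM in each library (points, labelled by library) of 9 members, with the mean and SD of each group (bars, n = 4). For Ugt1a9, Ugt1a5, Sult5a1 and Gstp1 the point of H15 lies with the wild-type points, whereas Gsto1, Gstm4 and Ugt1a1 have groups that do not overlap.

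Ugt1a9, which conjugates phenols, had 49.7, 36.3, 37.7 and 54.9 CPM in wild-type livers and 74.3, 90.5, 48.3 and 72.3 CPM in heterozygous livers. H11, H12 and H75 lay above all wild-type libraries and H15 within them. The means were 44.7 ± 9.12 and 71.3 ± 17.4 CPM (SD, n = 4), and the log2 fold change of 0.68 (SE 0.20) had an adjusted p of 0.388 with edgeR and 0.0785 with DESeq2. Without H15 the log2 fold change was 0.82 and passed edgeR's test (adjusted p = 0.0381), and adjusted p values in the 18 alternatives lay between 0.0381 and 0.771.

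Ugt1a5 had 248, 169, 175 and 202 CPM in wild-type livers and 86.5, 61.3, 205 and 59.6 CPM in heterozygous livers. H11, H12 and H75 were each below every wild-type library, and H15 was second only to W32. The means were 198 ± 36.1 and 103 ± 69.2 CPM (SD, n = 4), with a log2 fold change of -0.94 (SE 0.37, edgeR adjusted p = 0.482). Without H15 the log2 fold change was -1.52 and passed (edgeR adjusted p = 0.00501), the lowest adjusted p over the 18 alternatives, which reached 0.871.

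Ugt1a1 had 405, 346, 370 and 399 CPM in wild-type livers and 449, 408, 410 and 409 CPM in heterozygous livers. All heterozygous values lay above all wild-type values, by a small margin (log2 fold change 0.14, SE 0.089, edgeR adjusted p = 0.657). Ugt1a10 was also without overlap, at 1.81, 2.61, 2.62 and 2.53 CPM against 2.93, 4.31, 2.89 and 3.002 CPM (log2 fold change 0.46, SE 0.21, edgeR adjusted p = 0.544). Ugt1a6a and Ugt1a6b, named here after their values were seen, had log2 fold changes of -0.063 and -0.076.

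The makeup of the locus shows the same values as shares of the summed Ugt1a counts. Ugt1a5 made up 23.8, 19.3, 18.9 and 20.6% in wild-type livers and 9.39, 7.001, 21.3 and 6.73% in heterozygous livers. Ugt1a9 made up 4.78, 4.15, 4.07 and 5.62% against 8.07, 10.3, 5.003 and 8.16%. In H11, H12 and H75 the share of Ugt1a5 was lower, and that of Ugt1a9 higher, than in any wild-type library, while H15 lay in the wild-type range for both. The ratio of Ugt1a5 to Ugt1a9 counts was 4.99, 4.65, 4.64 and 3.67 in wild-type livers and 1.16, 0.678, 4.25 and 0.825 in heterozygous livers. The share of Ugt1a1 was 38.9 to 40.8% in the wild-type and 42.6 to 48.8% in the heterozygous libraries, and the mean share of Ugt1a6a was 17.7% in both groups.

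**Figure D4:**
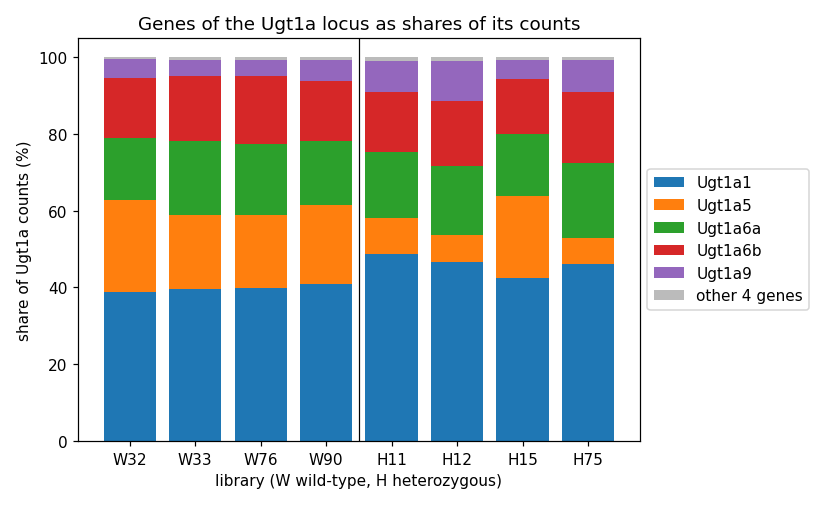
Share of the summed Ugt1a counts (percent, vertical axis) taken by each gene of the locus in each library, the 4 wild-type libraries on the left. The orange part, Ugt1a5, is 18.9 to 23.8% in wild-type livers and in H15 (21.3%), and 6.73 to 9.39% in H11, H12 and H75, where the purple part, Ugt1a9, is 8.07 to 10.3%.

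The Ugt1a counts have a limit of their own. On chromosome 1 of GRCm38 the first exon of Ugt1a9 (chr1:88070800-88071678, 879 bases), of Ugt1a5 (chr1:88166012-88166903, 892 bases) and of Ugt1a1 (chr1:88211959-88212871, 913 bases) is its own, and the exons of 132, 88 and 220 bases that follow are the same for all 9 genes. Of the windows of 100 bases 58.5% in Ugt1a9, 63.1% in Ugt1a5 and 77.4% in Ugt1a1 also occur in another gene. The sources used here do not say how reads of the shared exons were divided, and the shares depend on that division. The annotated transcript Gm20528 also overlaps Ugt1a exons on the opposite strand, and nothing says that strand was used in counting.

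Ugt2b37 and Ugt2b38, 2 genes of low level in the cluster of steroid and drug glucuronosyltransferases on chromosome 5, were highest in H12 and H75. Ugt2b38 had 4.56, 10.6, 19.0 and 11.6 CPM in wild-type livers and 16.1, 61.6, 9.60 and 42.4 CPM in heterozygous livers. Ugt2b37 had 4.19, 14.3, 12.8 and 1.74 CPM against 23.5, 24.9, 8.75 and 38.2 CPM. H15 was inside the wild-type range for both genes and H11 for Ugt2b38. Of the windows of 100 bases in Ugt2b38 24.2% also occur in the far more abundant Ugt2b5, so its count depends on how reads were split, whereas Ugt2b37 shares 1.06% of its windows. The log2 fold change was 1.51 for Ugt2b38 (SE 0.57, edgeR adjusted p = 0.479) and 1.53 for Ugt2b37 (SE 0.60, edgeR adjusted p = 0.484), and without H15 both were 1.8 on the log2 scale with edgeR adjusted p values of 0.109 and 0.158.

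The abundant Ugt2b genes differed little. Ugt2b5 averaged 650 ± 53.7 CPM in wild-type livers and 713 ± 113 CPM in heterozygous livers (SD, n = 4), a log2 fold change of 0.13. Ugt2b36 had a log2 fold change of 0.079, which turned negative when libraries were scaled by their totals alone and without H75, and Ugt2b1 one of 0.23 (SE 0.19). The 7 Ugt2b genes together summed to 2074 ± 164 and 2261 ± 286 CPM (SD, n = 4). The Ugt3a genes, which use other sugars such as N-acetylglucosamine, summed to 407 ± 56.1 and 396 ± 26.3 CPM, and Ugt3a2 had a log2 fold change of -0.011 that turned positive without W76 or H15.

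The sulfotransferases were the family with the fewest expressed members, and only low-level genes were at an unadjusted p under 0.05 in edgeR: Sult5a1 higher and Sult2a7 lower. Sult5a1 had 4.02, 4.68, 5.47 and 3.44 CPM in wild-type livers and 10.5, 13.1, 3.27 and 12.9 CPM in heterozygous livers. H11, H12 and H75 had values well above every wild-type library, and H15 had the lowest of all 8. The log2 fold change was 1.17 (SE 0.37), with an adjusted p of 0.408 in edgeR and 0.0786 in DESeq2, and without H15 it was 1.47 (edgeR adjusted p = 0.00558). Sult5a1 lies on chromosome 8 and shares no window of 100 bases with another gene.

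Sult2a7, a member of the bile acid and steroid sulfotransferase cluster on chromosome 7, had 2.25, 1.001, 2.04 and 1.29 CPM in wild-type livers and 0.643, 0.809, 1.19 and 1.001 CPM in heterozygous livers. The groups overlapped, with W33 inside the heterozygous range (log2 fold change -0.85, SE 0.33, edgeR adjusted p = 0.479). Sult2a8, its abundant neighbour, averaged 460 ± 62.2 and 497 ± 92.0 CPM (SD, n = 4), a log2 fold change of 0.11. Sult1c2 was at 1.98 ± 0.234 and 1.46 ± 0.372 CPM (log2 fold change -0.44, SE 0.23, edgeR adjusted p = 0.595). Sult1a1, Sult1b1 and Sult1d1 had log2 fold changes between -0.02 and 0.08, and each changed sign in at least 1 alternative. The median of the 7 tested sulfotransferases was -0.011, and their sum was 805 ± 55.9 CPM in wild-type livers and 846 ± 84.8 CPM in heterozygous livers, a difference below either SD that also changed sign with scaling by library totals.

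**Figure D5:**
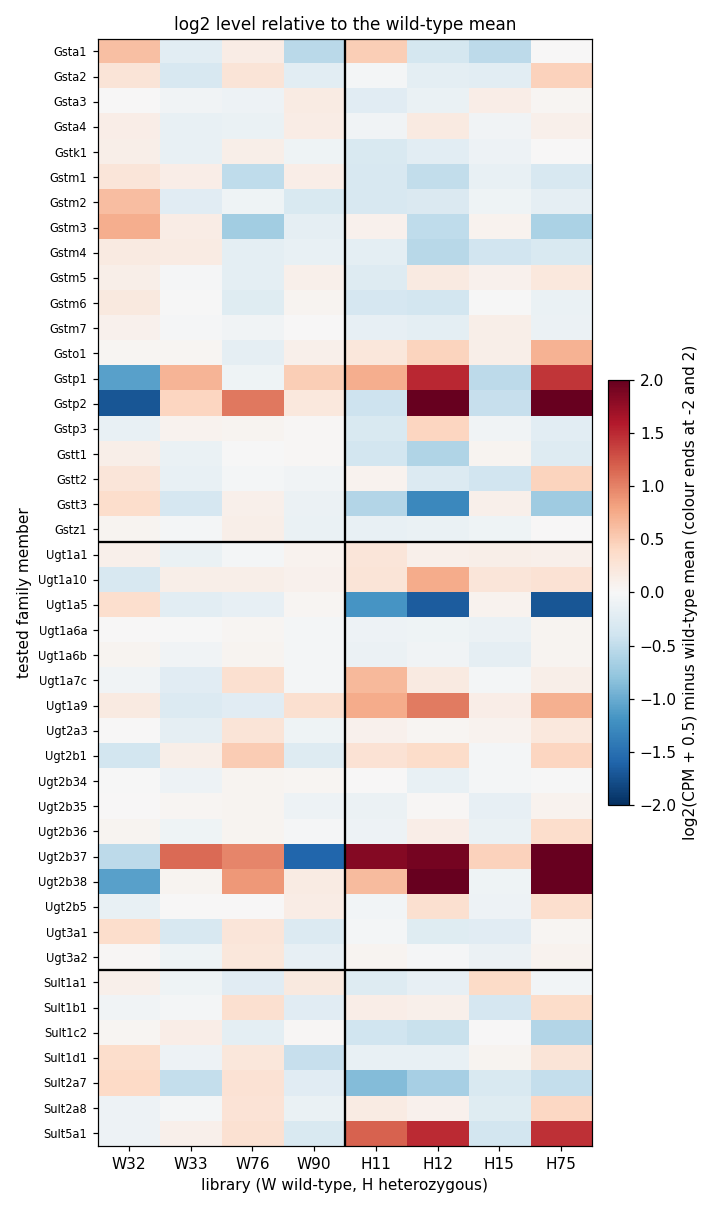
Log2(CPM + 0.5) of each tested member in each library relative to its wild-type mean, with red for higher and blue for lower values (colours end at -2 and 2) and lines between the groups and the families. H12 and H75 carry most of the deep colours (Gstp1, Gstp2, Ugt1a5, Ugt2b37, Ugt2b38 and Sult5a1), and H15 resembles the wild-type libraries for Ugt1a5 and Sult5a1.

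Most genes that supply the conjugating molecules were not at an unadjusted p under 0.05 in edgeR. Of 14 tested genes of glutathione supply and turnover, Chac1 was higher and Gclc lower with an unadjusted p under 0.05 in edgeR (4.9 and 4.44% of all genes), with a median log2 fold change of -0.10. Gclc, the catalytic subunit of the enzyme that limits glutathione synthesis, had 326, 291, 264 and 318 CPM in wild-type livers and 227, 248, 231 and 229 CPM in heterozygous livers. The groups did not overlap (log2 fold change -0.36, SE 0.093), and the adjusted p was 0.354 with edgeR and 0.0250 with DESeq2. Chac1, which degrades glutathione and is a target of the transcription factors ATF4 and CHOP, had 1.601, 2.14, 1.08 and 0.757 CPM in wild-type livers and 5.46, 2.23, 3.31 and 3.85 CPM in heterozygous livers. Here too the groups did not overlap, H12 lying just above W33 (log2 fold change 1.40, SE 0.36, adjusted p = 0.354 with edgeR and 0.0220 with DESeq2). Over all genes 2.06% lay above and 2.32% below without overlap, and DESeq2 called 1.05%.

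For UDP-glucuronate, 1 of 9 genes was at an unadjusted p under 0.05 in edgeR, Ugp2, which makes UDP-glucose. Over all genes 9.34% were at that level and 4.38% without overlap. Ugp2 averaged 240 ± 21.6 CPM in wild-type livers and 197 ± 7.82 CPM in heterozygous livers (SD, n = 4) without overlap. Ugdh, which oxidises UDP-glucose to UDP-glucuronate, had a log2 fold change of -0.0094, whose sign turned without W32, H11 or H15. For PAPS and sulfate, 1 of 9 was lower, Impad1, a phosphatase of the Golgi that removes the spent cofactor, at 36.4 ± 3.37 and 31.2 ± 1.04 CPM (SD, n = 4) without overlap. Papss2, a PAPS synthase, had a log2 fold change of -0.25 (SE 0.17). Among 15 other genes of conjugation or related steps, most of them transferases, Nnmt and Nat8 were higher at an unadjusted p under 0.05 in edgeR. Nnmt, which methylates nicotinamide, had a log2 fold change of 0.86 (1.03 without H15). Nat8, an acetyltransferase of cysteine conjugates, had one of 0.37. Of 8 export pumps only Abcb1b was at that level, with a log2 fold change of 0.84.

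Of 17 tested regulators known to act on these families, transcription factors and the NRF2 inhibitor Keap1, none passed an adjusted p under 0.05 in edgeR. Among them 3 were at an unadjusted p under 0.05 in edgeR, with Cebpb (log2 fold change 1.20) and Hnf4a (0.30) higher and Esr1 (-0.59) lower, and Hnf4a and Esr1 did not overlap between groups (over all genes 9.34% were at that level and 4.38% without overlap). Their edgeR adjusted p values were 0.402, 0.458 and 0.366. Hnf4a, a factor that maintains hepatocyte gene expression, had 537, 504, 528 and 495 CPM in wild-type livers and 609, 671, 538 and 715 CPM in heterozygous livers, with H15 just above W32. Cebpb had 18.8, 18.7, 23.6 and 17.7 CPM against 35.3, 78.2, 17.1 and 49.8 CPM, so that H15 was the lowest of all (adjusted p = 0.402 with edgeR and 0.0471 with DESeq2). Without H15 Cebpb passed edgeR's test (adjusted p = 0.0223). The receptors Nr1i2 (PXR), Nr1i3 (CAR) and Ahr had log2 fold changes of -0.034, -0.16 and -0.065, and Nfe2l2, which encodes NRF2, one of -0.26 (SE 0.12, edgeR adjusted p = 0.556). The sign of the first 3 turned when single libraries were left out.

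Targets of these factors outside the families were counted from lists of the same kind. None passed an adjusted p under 0.05 in edgeR with all 8 libraries. Of 10 tested NRF2 targets 1 was at an unadjusted p under 0.05 in edgeR, Gclc (9.34% of all genes), and the median log2 fold change was -0.091. Hmox1, which degrades haem, and Osgin1 went the other way, with log2 fold changes of 0.77 each (unadjusted p = 0.0536 and 0.051 in edgeR), and Hmox1 passed without H15 (log2 fold change 1.04, edgeR adjusted p = 0.0317). Of 9 tested targets of CAR and PXR 4 were at an unadjusted p under 0.05 in edgeR, with positive log2 fold changes for Cyp3a13 (0.53), Por (0.54) and Gadd45b (2.53) and a negative one for Cyp2c55 (-0.66), and the median was 0.067. The edgeR adjusted p values of Por, Gadd45b and Cyp2c55 were 0.389, 0.399 and 0.432. Cyp3a13, a steroid and drug hydroxylase, averaged 119 ± 8.01 CPM in wild-type livers and 172 ± 27.0 CPM in heterozygous livers (SD, n = 4) without overlap (adjusted p = 0.333 with edgeR, 0.0282 with edgeR without H15 and 0.0109 with DESeq2). Of 5 tested AHR targets Cyp1a2 was at an unadjusted p under 0.05 in edgeR, at 414 ± 78.3 and 587 ± 78.4 CPM (SD, n = 4) without overlap (adjusted p = 0.390 with edgeR and 0.0914 with DESeq2).

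The libraries in which Ugt1a5 was low and Ugt1a9, Sult5a1 and Ugt2b37 were high were those with the largest differences in acute phase and lipogenic genes. Of 20 acute phase genes 15 had an unadjusted p under 0.05 in edgeR, all higher (4.9% of all genes), with a median log2 fold change of 1.26. Of 12 lipogenic genes 9 did, all lower (4.44% of all genes), with a median of -0.93. Without H15 these counts were 16 and 11, where 16% of all genes were at that level in either direction. Of these, 12 and 11 passed edgeR's adjusted test (1.74% of all genes), and the medians were 1.53 and -1.53. The part of these programmes in the values of the conjugation enzymes was not tested. Markers of cholangiocytes, Kupffer cells, sinusoidal endothelium and stellate cells, 5 each, had at most 1 gene per list at that level. Their summed levels overlapped between groups, at 34.1 to 87.1 and 40.9 to 101 CPM for cholangiocytes and 72.3 to 179 and 73.6 to 177 CPM for Kupffer cells. Of 5 neutrophil markers Ly6g, Mpo and Elane were too low to test, and both tested ones were higher at an unadjusted p under 0.05 in edgeR: S100a8 (log2 fold change 1.74, edgeR adjusted p = 0.479) and S100a9 (2.13, edgeR adjusted p = 0.442). S100a9 had 0.341, 0.250, 0.501 and 0.189 CPM in wild-type livers and 1.25, 2.47, 0.0850 and 1.85 CPM in heterozygous livers, so H11, H12 and H75 were above all others. H15 was the lowest, but below 0.127 CPM, the level of 3 counts in that library. Its rank is therefore uncertain, and the wild-type values were also of few counts. Without H15 the log2 fold change of S100a9 was 2.52 and passed (edgeR adjusted p = 0.0211). The summed level of the 5 markers was 0.416 to 0.783 CPM in wild-type livers and 0.595 to 3.20 CPM in heterozygous livers, and its part in the values of the conjugation enzymes was not tested.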

How the data were processed

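RNA of 4 wild-type and 4 heterozygous mouse livers was measured. Per the submitters' processing notes the build was mm10, and the tools named, without a role, are SAMtools 1.9, GATK 3.8, fastp 0.19.5 and Bowtie2 2.2.9. What program and annotation gave the counts, and whether strand was used, is not given in the sources. The authors deposited estimated counts per gene, not normalized, of which 90.0% are whole, and 541 unannotated loci (0.431 to 0.977% of counts) stayed in the table. The authors' deposited table of comparisons gives a ratio (fold), its log2, a p-value and an adjusted p-value for each gene with the gene length. It states no direction, and for 99.5% of 13971 shared genes its sign was that of heterozygous relative to wild-type livers. Column names give the group only, so no library was paired.

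Counts were rounded, filtered with filterByExpr, scaled with TMM (factors 0.900 to 1.06) and tested over all genes with the quasi-likelihood test of edgeR 4.0.16 in R 4.3.3, group as the only term, with Benjamini-Hochberg adjustment and a threshold of 0.05. CPM uses scaled library sizes, RPKM divides it by the deposited gene length, and a standard error is the log2 fold change divided by the square root of F. DESeq2 1.42.0, limma-voom (limma 3.58.1), other scalings and filters, and leaving out each library were alternatives, and removal of unannotated loci was added after seeing the data. Every pair of libraries of a group was further apart than counting error (chi-square of 22.2 to 179 per gene). Precision is limited by depth for genes of low counts, and a count of 0 was taken to allow 3 counts, for counting error only. Scripts were tested on simulated data. The members, the 16 gene lists and the motifs were chosen with earlier results of these data known. Named members are, in each family, the 5 of highest RPKM and the 5 of lowest p, those without overlap and those with a library far from the rest. From other lists, up to 3 genes of lowest p and those without overlap are named. Gstp2, Ugt1a6a, Ugt1a6b, the Gsta range and the other genes named beyond this rule were chosen after their values were seen. Transcript sequences and positions are from GENCODE on GRCm38, and promoters were aligned globally with Biopython 1.88.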

Additional observations from a re-analysis of the deposited data

Results flagged for a closer look

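In 4 of 90 groups of 4 values, 1 library lay far from the other libraries of its group, with a gap to the nearest of them above the critical share of the range in Dixon's test. Chance alone gives such a gap in about 1 of 20 groups. Ugt1a1 was at 449 CPM in H11, where the other heterozygous libraries had 408 to 410 CPM. Ugt1a10 was at 1.81 CPM in W32, against 2.53 to 2.62 CPM in the other wild-type libraries, and at 4.31 CPM in H12, against 2.89 to 3.002 CPM in the other heterozygous libraries. Gstp3, a pi-class glutathione transferase, was at 19.5 CPM in W32, against 22.2 to 22.8 CPM in the other wild-type libraries.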

How the results depend on the processing

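No paired analysis was possible because the columns carry no replicate numbers. Eif2s1 kept its direction in every alternative and passed only with DESeq2 (log2 fold change -0.44, adjusted p = 0.0159). Members called numbered 0 to 3 when each library was left out, with 3 only without H15, and 0 in every other alternative. At an adjusted p under 0.1 the edgeR fit of all 8 libraries also called 0. With DESeq2 the adjusted p was 0.0785 for Ugt1a9 and 0.0786 for Sult5a1, both under 0.1. Members at an unadjusted p under 0.05 numbered 13 with no filter on low counts (7.33% of all genes) and 4 to 16 when each library was left out (5 without H12 or H75). Members without overlap numbered 2 with upper quartile factors (4.34% of all genes) and 4 to 14 when each library was left out (8 without W76). This count does not exist apart for limma-voom and the newer quasi-likelihood method. With library totals as the scale, the median log2 fold change of glucuronosyltransferases was 0.0092, and that of all genes -0.079.

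Of 59 genes named with a fold change, 48 kept their direction in every alternative run, and 11 did not. With library totals Sult1b1 was at -0.018 and Ugt2b36 at -0.020, and with limma-voom Sult1d1 was at 0.0038 (log2 fold changes). When a library was left out, the sign turned for Gsta3 (0.014 to 0.017), Sult1a1 (0.0068, 0.025, 0.038, 0.054 and 0.064), Sult1b1 (-0.032), Sult1d1 (0.032, 0.034, 0.049 and 0.11), Ugt2b36 (-0.029), Ugt3a2 (0.026 and 0.071), Ugdh (0.029, 0.0498 and 0.056), Nr1i2 (0.029 and 0.057), Nr1i3 (0.0059), Ahr (0.056) and Gstt2 (0.076, 0.081 and 0.10). The cause was not tested. Depth limits the members of few counts, such as Sult2a7 and Ugt1a10.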

Other observations

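Genes that mark the position of hepatocytes along the lobule, where conjugation enzymes are often zoned, were also measured. Of 11 pericentral genes, Cyp1a2 was higher and Tbx3, a target of Wnt signals, lower (log2 fold change -0.64) at an unadjusted p under 0.05 in edgeR. Over all genes 4.9% were higher and 4.44% lower at that level. The median log2 fold change of the pericentral genes was -0.058. Of 10 periportal genes 1 was higher at that level, Pck1, the key enzyme of gluconeogenesis (0.57), and the median was 0.14. Fabp2, a fatty acid carrier of the intestine that is also made in liver, had 86.3, 49.9, 61.1 and 65.2 CPM in wild-type livers and 34.8, 36.4, 48.0 and 39.0 CPM in heterozygous livers. The groups did not overlap, with an adjusted p of 0.351 in edgeR, 0.0428 in edgeR without H15 and 0.0130 in DESeq2 (log2 fold change -0.73).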
